A study of Mus musculus with 18 samples.

Results

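The genes of milk fat synthesis and lipid droplets were followed in sorted cells of the mouse mammary gland at puberty, in adulthood and in mid pregnancy. The set held 37 genes, picked out by gene symbol from a list of genes of milk fat formation, and all 37 were found among 46257 gene IDs. By step, 8 act in uptake, activation and binding of fatty acids, 10 in de novo synthesis, 7 in elongation and desaturation, 7 in triglyceride assembly, and 5 in the droplet coat and its secretion. RNA-seq was made from basal cells, oestrogen receptor negative (ER-) luminal cells and oestrogen receptor positive (ER+) luminal cells, with 2 libraries in each of 9 groups. In the order of the stages these were puberty basal, ER- and ER+ cells, adult basal, ER- and ER+ cells, and pregnancy basal, ER- and ER+ cells. Mice of every group carried the same alleles, ERrtTA/TetOCre/rosaYFP, a tetracycline-controlled Cre with a fluorescent reporter. The labels give no ages, no sorting gates and no inducer given to the mice. The labels do not say whether the 2 libraries of a group came from separate animals, so p-values measure the spread between libraries, which may be technical. Titles name the puberty and pregnancy basal samples as basal cells (BC), although their cell type field holds the words "BC luminal cells"; groups follow the titles.

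Milk fat is triglyceride made in the luminal cells of the gland and released as droplets wrapped in plasma membrane. Its fatty acids come from the blood, freed from lipoproteins by lipase and taken up through membrane transporters, or are made in the cell from citrate by fatty acid synthase, which in the gland is stopped early to give medium-chain acids. They are then desaturated, joined to glycerol in the endoplasmic reticulum, stored under a coat of perilipin and enveloped at the apical surface with the help of butyrophilin and xanthine dehydrogenase.

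Values are the deposited normalized signal, whole numbers that sum to between 19841695 and 19897395 in each library. A fold change is the difference of means of log2(value + 1) with its standard error (SE), and a gene is said to rise or fall where the adjusted p (limma, Benjamini-Hochberg over 22315 genes) was under 0.05. Several libraries stood apart in content. Pregnancy ER- replicate 2 had 10.6% of its total in its 100 most abundant genes, where the other 17 libraries had 18.9% to 24.5%. Its casein Csn2 was at 21279 against 253329 in replicate 1. Abundant RNAs outside milk were low there too, Gm26917 at 45549 against 409585 and mitochondrial mt-Co1 at 17475 against 149793. Its mitochondrial share was 0.615%, where the other 17 libraries had 1.88% to 7.07%. Pregnancy ER+ replicate 2 had less of the oestrogen receptor gene Esr1 than replicate 1, 2096 against 5666, and a larger sum of 10 ER- luminal markers, 127857 against 51291. Adult basal replicate 1 had Csn2 at 77881 against 6854 in replicate 2, and a sum of 8 milk protein genes of 271440 against 38784. Sums of 11 adipocyte markers reached 36684 in puberty libraries and were 754 to 1174 in adult luminal libraries. The smallest non-zero value was 7 to 9 in the adult luminal libraries and 2 to 5 in the others. The sorted populations carried their markers. At puberty all 10 ER- luminal markers were higher and 9 of 10 ER+ markers lower in ER- than in ER+ cells, and all 10 basal markers were higher in basal cells over the 3 stages. In pregnancy the same comparison of luminal cells found 5 of the ER+ markers lower in ER- cells, and none of the 10 ER- markers passed the test (limma).

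Against adults, pregnancy raised 16 of the 37 genes in ER- luminal cells, lowered 1 and left 20 short of the test. Of all 22315 genes tested, 14.4% passed there, 8.89% higher and 5.51% lower. Their median fold change was 0.95 on the log2 scale, beside 0.09 over all genes. Against puberty 14 passed in ER- luminal cells, every one of them higher, with a background of 14.8% (8.78% higher, 6.04% lower) and a median of 0.82 beside 0.03. Against adults 3 of 10 basal markers were higher and 1 lower in ER- cells (median 2.56), and 4 of 10 endothelial markers were higher (median 3.65). Against puberty 4 of 10 basal and 7 of 10 macrophage markers were higher there, with medians of 2.78 and 3.05, and 6 of 11 adipocyte markers were lower. The part of these cell types in the ER- rises was not tested. In ER+ luminal cells 19 rose against adults (background 17.9%, of which 12.8% higher and 5.05% lower, median 1.56 beside 0.21). In that comparison 6 of the 10 ER- luminal markers, 6 of the 10 basal and 7 of the 8 fibroblast markers were higher too, with medians of 2.18, 3.0 and 2.85. The ER- markers summed to 51291 and 127857 in pregnancy ER+ libraries, against 11764 and 12449 in adult ER+ libraries, and the part of ER- luminal cells and of the other cell types in the ER+ rises was not tested. Against puberty 13 rose and 2 fell in ER+ cells (background 13.1%, of which 7.34% higher and 5.73% lower, median 0.91 beside 0.13). In basal cells the counts were small, with 2 higher against adults (background 7.26%, of which 2.92% higher and 4.34% lower) and 4 higher and 2 lower against puberty (background 2.07%, of which 0.668% higher and 1.4% lower). The medians were 0.38 beside -0.09 and -0.04 beside -0.02. Against adults 3 of 8 fibroblast and 3 of 10 macrophage markers were higher in basal cells. Against puberty 3 of 10 ER- luminal markers were higher and 5 of 11 adipocyte markers lower. The part of these cell types in the basal counts was not tested. Adult basal replicate 1, the one rich in milk protein RNA, also had the larger sum over the 37 genes, 87500 against 55540 in replicate 2. Its part in the small basal count against adults was not tested. The comparisons with adults and with puberty share their pregnancy libraries and so are not independent of each other. Summed over the 37 genes, ER- libraries held 0.629% and 0.497% of their total at puberty, 0.515% and 0.471% in adults, and 1.06% and 1.29% in pregnancy. The ER+ libraries held 0.391% and 0.288%, 0.286% and 0.254%, and 0.579% and 1.13% at the same stages. Basal libraries held 0.397% and 0.638%, 0.441% and 0.28%, and 0.443% and 0.556%, so their pregnancy shares lay within the range of puberty.

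These counts rest on few libraries. Over the 12 comparisons 112 calls were made on members, and 53 of them stood in all 18 runs that each left out 1 library. The other 59 were lost in at least 1 run and 10 of these in at least 9, namely Elovl6, Acacb and Acsl1 in ER- cells and Elovl6 in ER+ cells against adults, Thrsp in ER+ cells against puberty, Plin2 and Gpam between ER- and ER+ cells at puberty, Srebf1 between them in adults, Elovl5 between basal and luminal cells, and the difference of the Fads2 changes. Without pregnancy ER- replicate 2, 3 of the 37 passed against adults and 3 against puberty. The fold changes of all 17 and all 14 members called with every library kept their sign, and 16 of the 17 and all 14 had an unadjusted p under 0.05. Without adult ER- replicate 1 the count against adults was 10 and without adult ER- replicate 2 it was 4. Without puberty ER- replicate 2 the count against puberty was 3, and without replicate 1, the one rich in adipocyte transcripts, it was 10. For ER+ cells 14 passed against adults and 9 against puberty without pregnancy ER+ replicate 2, and the count against puberty was likewise 9 without puberty ER+ replicate 2. For basal cells the count against puberty was 1 without puberty basal replicate 2 and 0 without either pregnancy library (limma, with 9 members at an unadjusted p under 0.05 when all libraries were kept). The count of 2 against adults was 7 without adult basal replicate 1 and 1 without adult basal replicate 2 or either pregnancy basal library.

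**Figure D1:**
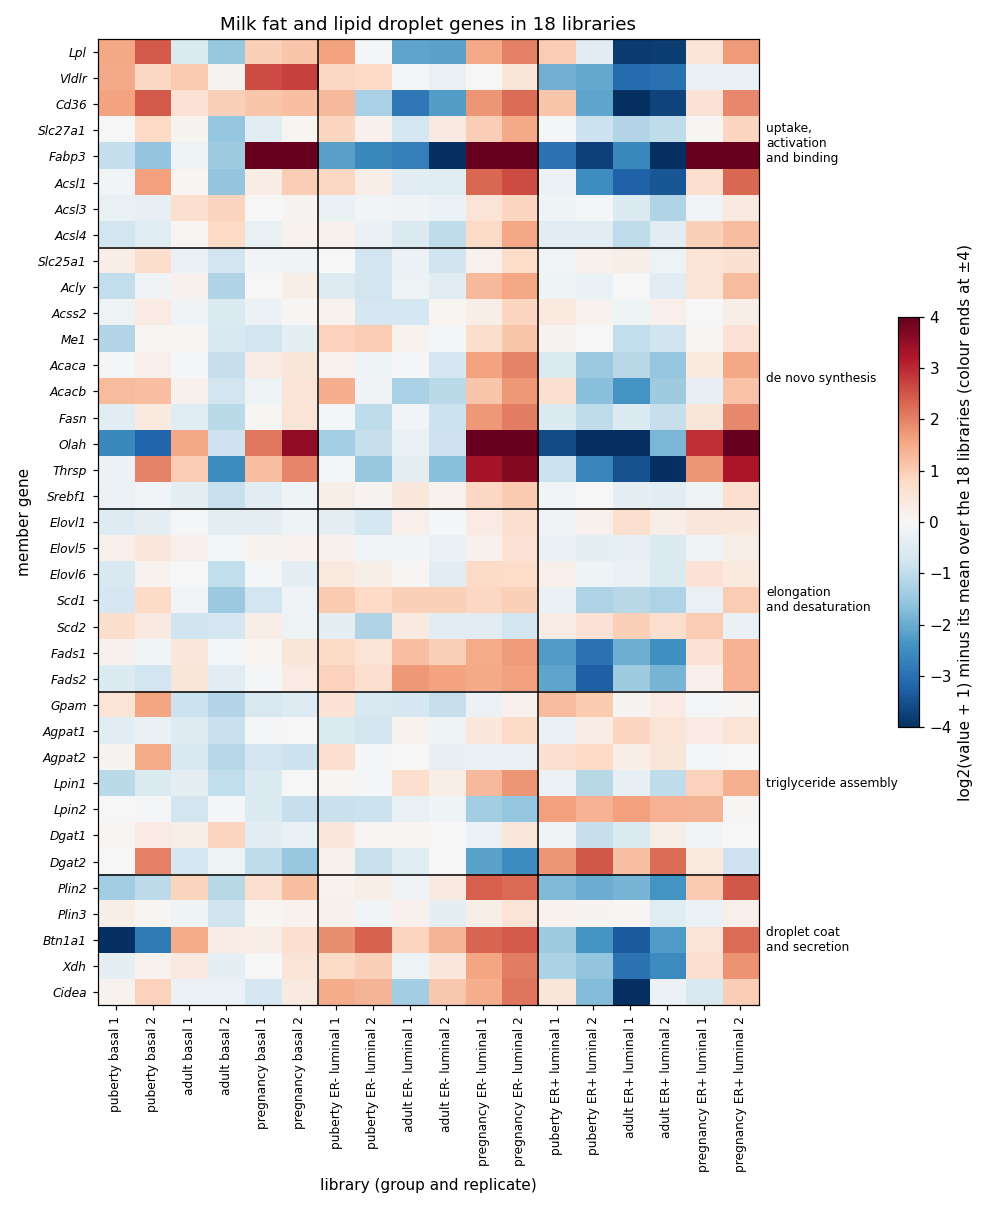
Each row is 1 of the 37 genes, ordered by step, and each column 1 of the 18 libraries, ordered by population and then stage. Colour gives log2(value + 1) minus the row's mean over the 18 libraries, so red is above that gene's mean, and the pregnancy ER- columns hold the highest group mean for 22 of the 37 genes.

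**Figure D2:**
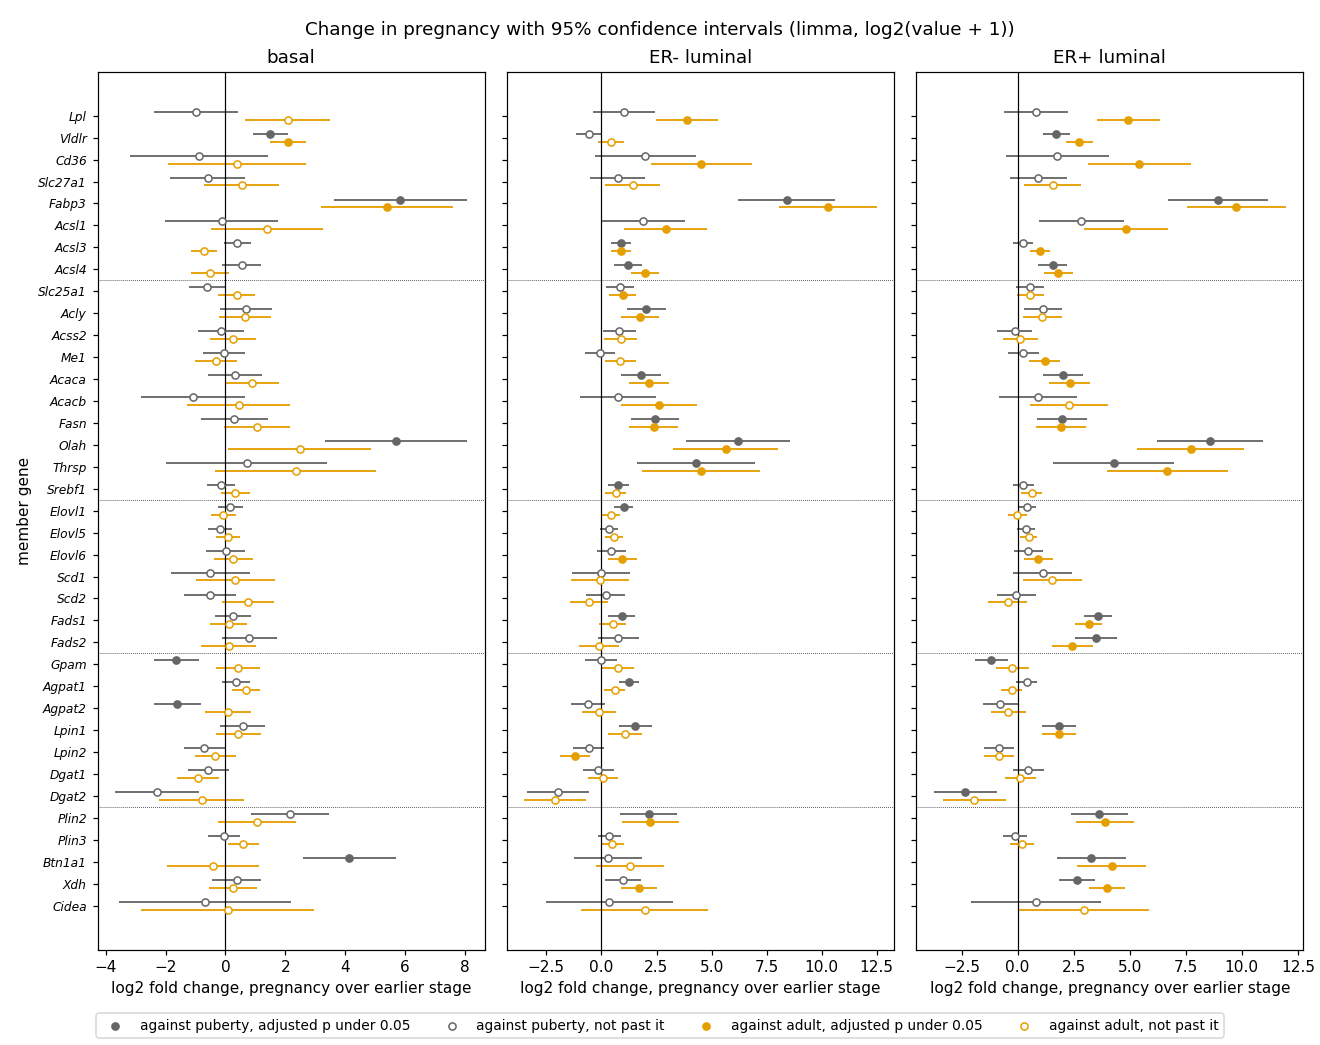
Log2 fold changes of the 37 genes in pregnancy, with 95% confidence intervals, against puberty (grey) and against adults (orange), in basal, ER- luminal and ER+ luminal cells. Filled points passed an adjusted p of 0.05, which 2 to 19 members did per comparison, and the horizontal scale differs between panels.

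Among the uptake, activation and binding genes, Fabp3, the cytosolic fatty acid binding protein of muscle and mammary cells, had the largest change of the set (chromosome 4, 130308595 to 130315463). In ER- luminal cells Fabp3 was at 11 and 8 at puberty, 7 and 0 in adults, and 3570 and 3455 in pregnancy. ER+ luminal cells had 6 and 3, then 8 and 0, then 1348 and 4963 at the same stages. In basal cells Fabp3 was at 27 and 17 at puberty, 46 and 19 in adults, and 1074 and 1544 in pregnancy. Pregnancy libraries lay far above all others in each population, with no overlap. The fold change in ER- cells was 10.28 ± 1.03 against adults (adjusted p = 5.76e-05) and 8.40 ± 1.03 against puberty, in ER+ cells 9.75 ± 1.03 and 8.93 ± 1.03, and in basal cells 5.39 ± 1.03 and 5.84 ± 1.03. Adult values of 7 and 8 are the smallest that any gene can have there above 0, or close to it, so the size of the fold against adults depends on the added 1 and is no bound.

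Lpl, the lipase that frees fatty acids from lipoprotein triglyceride, was at 8486 and 2630 at puberty, 648 and 627 in adults, and 7994 and 11284 in pregnancy ER- cells (chromosome 8, 68880491 to 68907448). Lpl in ER+ cells was at 5648 and 2082, then 194 and 198, then 4045 and 8971. Its pregnancy values overlapped those of puberty in both luminal populations and lay apart from those of adults. Lpl rose against adults by 3.90 ± 0.64 in ER- cells (adjusted p = 0.00421) and by 4.93 ± 0.64 in ER+ cells, and against puberty the differences of 1.01 ± 0.64 and 0.81 ± 0.64 did not pass.

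Cd36, a fatty acid transporter of the cell surface, had the same order of stages (chromosome 5, 17781690 to 17888801). Cd36 was at 5285 and 883 at puberty, 300 and 458 in adults, and 7278 and 10217 in pregnancy in ER- cells, and at 4702 and 497, 86 and 165, and 3259 and 8231 in ER+ cells. It rose against adults by 4.54 ± 1.03 (adjusted p = 0.0185) and 5.43 ± 1.03 (adjusted p = 0.00543), and the differences from puberty, 2.00 ± 1.03 and 1.76 ± 1.03, did not pass. The puberty library with the higher Lpl and Cd36 was also the one with the higher adipocyte sum in each population. Adipocyte sums at puberty were 22026 and 4306 in ER- cells, 15911 and 3316 in ER+ cells, and 19904 and 36684 in basal cells. Lpl and Cd36 are also genes of adipocytes and endothelium, and the sums of 10 endothelial markers were 2676 to 4896 in pregnancy luminal libraries against 300 to 639 in adult luminal libraries. The sums of the 11 adipocyte markers were 2449 to 3404 in pregnancy luminal libraries, against 754 to 1174 in adult luminal libraries. The largest share came from Fabp4, a fatty acid binding protein of adipocytes and endothelium, at 2060 and 1893 in pregnancy ER- cells, against 205 and 113 in adult ER- cells, and at 2174 and 1318 in pregnancy ER+ cells, against 55 and 116 in adult ER+ cells. Adipoq was at 0 to 8, Cfd at 0 to 19, Cidec at 0 to 14, Plin1 at 0 to 14 and Retn at 0 to 4 in the 6 pregnancy libraries. In the same libraries Lep was at 4 to 93, Adig at 32 to 136, Plin4 at 61 to 527, Slc2a4 at 59 to 1664 and Lipe at 224 to 942. The part of adipocyte and endothelial RNA in the difference from adults was not tested. In sorted bulk samples, fewer cells of a type and less RNA per cell cannot be told apart.

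Of the acyl-CoA synthetases, which activate fatty acids for use in the cell, Acsl1 was at 4330 and 2916 at puberty, 1786 and 1736 in adults, and 11813 and 14914 in pregnancy ER- cells (chromosome 8, 46471037 to 46536051). Acsl1 rose against adults in ER- cells (2.91 ± 0.85, adjusted p = 0.0458), a call lost in 10 of the 18 runs, and in ER+ cells (4.82 ± 0.85, adjusted p = 0.00356). Against puberty its fold changes were 1.90 ± 0.85 and 2.84 ± 0.85, with adjusted p of 0.166 and 0.0533. Acsl4 was at 2988 and 2205 at puberty, 1766 and 1297 in adults, and 4529 and 7784 in pregnancy ER- cells, and it rose in both luminal populations against both earlier stages, by 1.21 to 1.97. Acsl3 rose in ER- cells against both stages (0.88 ± 0.21 for each) and in ER+ cells against adults (1.00 ± 0.21). Slc27a1, a fatty acid transport protein, passed in none of the 12 comparisons by limma; its fold changes against adults were 1.42 ± 0.57 in ER- cells and 1.56 ± 0.57 in ER+ cells, both with unadjusted p under 0.05. Over the 8 genes of this step, 6 rose against adults and 3 against puberty in ER- cells. Of all genes, 8.89% and 8.78% were higher there. In ER+ cells 7 and 3 of the 8 rose, beside 12.8% and 7.34% of all genes. In basal cells 2 and 2 rose, beside 2.92% and 0.668% of all genes.

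**Figure D3:**
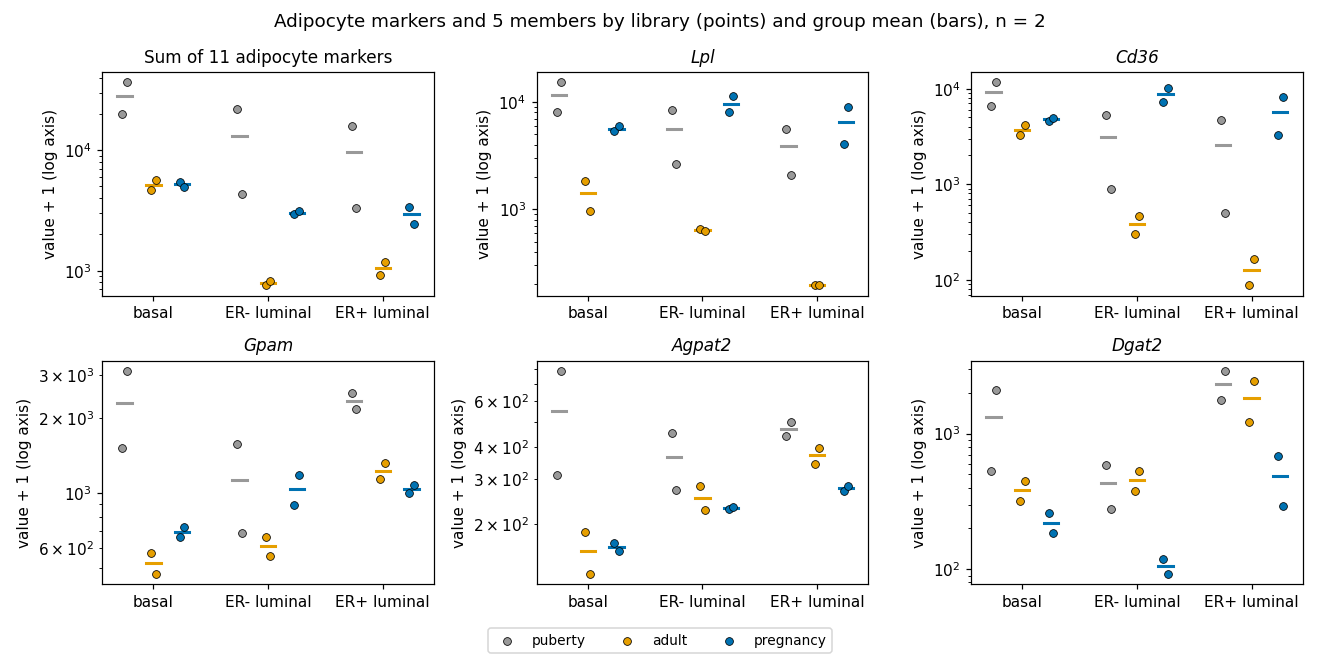
Values plus 1 on a log axis for the sum of 11 adipocyte markers and for Lpl, Cd36, Gpam, Agpat2 and Dgat2. Points are libraries and bars group means (n = 2), in basal, ER- luminal and ER+ luminal cells at puberty, in adults and in pregnancy; the puberty library with the higher adipocyte sum in each population, 36684 in basal, 22026 in ER- and 15911 in ER+ cells, also has the higher Lpl and Cd36.

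Of the 10 de novo synthesis genes, 7 rose against adults and 6 against puberty in ER- cells. Of all genes, 8.89% and 8.78% were higher there. In ER+ cells 5 and 4 of the 10 rose, beside 12.8% and 7.34% of all genes. In basal cells Olah alone of the 10 passed, against puberty, where 0.668% of all genes were higher. Fasn, the synthase that builds the acyl chain, lies on chromosome 11, 120805846 to 120824547. In ER- cells Fasn was at 9947 and 5194 at puberty, 9775 and 5783 in adults, and 34822 and 43083 in pregnancy. In ER+ cells it was at 7184 and 5181, 7175 and 5468, and 14584 and 39475. Both pregnancy libraries were above all libraries of earlier stages in each luminal population, and those of ER+ cells differed widely from each other. Fasn rose in ER- cells by 2.37 ± 0.50 against adults (adjusted p = 0.013) and 2.43 ± 0.50 against puberty (adjusted p = 0.00987), and in ER+ cells by 1.94 ± 0.50 and 1.98 ± 0.50. Without pregnancy ER- replicate 2 the ER- values were 2.21 and 2.28, and without pregnancy ER+ replicate 2 the ER+ values were 1.22 and 1.26, each short of the test. In basal cells Fasn was at 7737 and 13612, 7423 and 4955, and 10772 and 14831 at the 3 stages, and its fold changes of 1.06 ± 0.50 and 0.30 ± 0.50 did not pass.

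Acaca, the carboxylase that makes malonyl-CoA for the synthase, also rose in both luminal populations (chromosome 11, 84129672 to 84401651). Acaca was at 4316 and 3493 at puberty, 3736 and 2469 in adults, and 11846 and 15658 in pregnancy in ER- cells, and at 2608 and 1415, 1808 and 1328, and 5170 and 11576 in ER+ cells. Its rise against adults was 2.16 ± 0.41 in ER- and 2.32 ± 0.41 in ER+ cells, and against puberty by 1.81 ± 0.41 and 2.01 ± 0.41 (adjusted p 0.00267 to 0.0133 over the 4). Acacb, the carboxylase of the mitochondrial surface that restrains fatty acid oxidation, was at 1332 and 439, 198 and 232, and 1057 and 1611 in ER- cells; it rose against adults (2.60 ± 0.78, adjusted p = 0.0491), a call lost in 12 of the 18 runs, and differed from puberty by 0.77 ± 0.78.

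Acly, which turns citrate into the acetyl-CoA used for synthesis, was at 3166 and 2742 at puberty, 3899 and 3308 in adults, and 11167 and 13232 in pregnancy ER- cells (chromosome 11, 100476353 to 100528000). It rose there by 1.76 ± 0.40 (adjusted p = 0.0145) and 2.04 ± 0.40 (adjusted p = 0.00619). In ER+ cells Acly was at 4033 and 3789, 4631 and 3415, and 6692 and 10885, and its fold changes of 1.10 ± 0.40 and 1.13 ± 0.40 had adjusted p of 0.0771 and 0.0878. The difference between the ER- and ER+ changes from puberty, 0.92 ± 0.56, did not pass. Slc25a1, which exports citrate from mitochondria, rose in ER- cells against adults (0.96 ± 0.29), and Me1, a source of NADPH, rose in ER+ cells against adults (1.22 ± 0.32). Acss2, which activates acetate, ranged from 123 to 368 over all 18 libraries and passed in none of the 12 comparisons (limma; it had the lowest level per kilobase of exon of the 37 genes in pregnancy ER- cells).

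Thrsp, a small nuclear protein that promotes lipogenesis, was at 275 and 97 at puberty, 219 and 88 in adults, and 2820 and 3601 in pregnancy ER- cells, and at 155 and 44, 24 and 9, and 961 and 2735 in ER+ cells (chromosome 7, 97412938 to 97417730). Thrsp rose in ER- cells by 4.51 ± 1.21 and 4.28 ± 1.21 and in ER+ cells by 6.68 ± 1.21 and 4.28 ± 1.21 (adjusted p 0.00403 to 0.0427 over the 4). The ER+ call against puberty was lost in 10 of the 18 runs. Basal libraries had 238 and 1120, 573 and 47, and 656 and 1083, and the pregnancy values lay within the range of puberty. Olah, the thioesterase that releases medium-chain acids from the synthase, was at 13 and 18, 28 and 19, and 778 and 1848 in ER- cells, at 2 and 0, 0 and 9, and 272 and 1612 in ER+ cells, and at 5 and 3, 103 and 19, and 152 and 421 in basal cells (chromosome 2, 3341982 to 3397210). Olah was higher in both pregnancy libraries than in every earlier library of its population. Its fold changes were 5.64 ± 1.11 and 6.20 ± 1.11 in ER-, 7.71 ± 1.11 and 8.58 ± 1.11 in ER+, and 2.48 ± 1.11 (adjusted p = 0.183) and 5.70 ± 1.11 (adjusted p = 0.0163) in basal cells, against adults and against puberty in that order. Olah was at 0 or near it in ER+ cells before pregnancy, so those 2 sizes depend on the added 1.

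Srebf1, the transcription factor of lipogenic genes, moved less. In ER- cells it was at 6773 and 6285, 7785 and 6435, and 10208 and 12012, a rise of 0.76 ± 0.22 against puberty (adjusted p = 0.0325) and a difference of 0.65 ± 0.22 from adults (adjusted p = 0.0662). In ER+ cells its differences were 0.63 ± 0.22 and 0.25 ± 0.22 and neither passed.

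**Figure D4:**
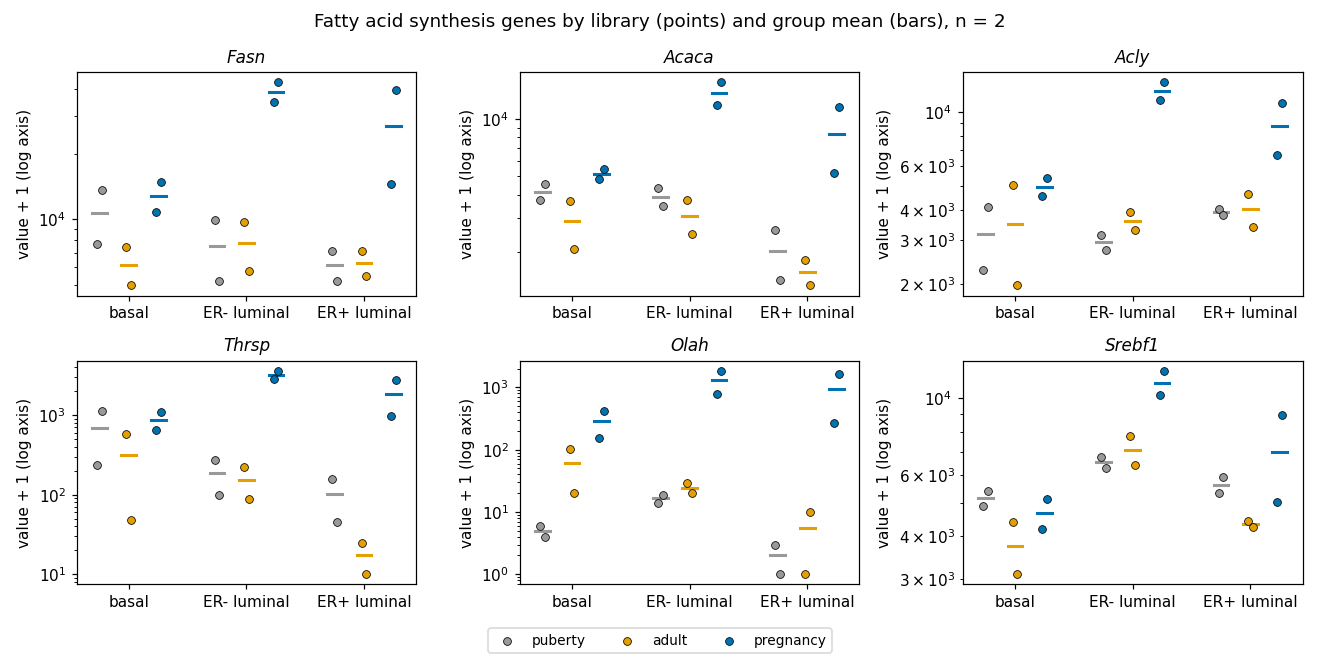
Values plus 1 on a log axis for Fasn, Acaca, Acly, Thrsp, Olah and Srebf1. Points are libraries and bars group means (n = 2) in basal, ER- luminal and ER+ luminal cells at puberty, in adults and in pregnancy; the pregnancy ER- libraries of Fasn, at 34822 and 43083, lie above all earlier ER- libraries, and those of ER+ cells, at 14584 and 39475, lie far apart.

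Promoters of 5 genes that rose in both luminal populations are shown because these genes rose together in pregnancy. The 250 bases before the RefSeq start (GRCm38.p6, on the gene's own strand) were read for Fasn (chr11:120824548-120824797, minus strand), Thrsp (chr7:97417551-97417800, minus strand), Plin2 (chr4:86670060-86670309, minus strand), Fabp3 (chr4:130308488-130308737, plus strand) and Olah (chr2:3366570-3366819, minus strand). Capitals mark CCAAT on either strand, the box read by the factor NF-Y.
Fasn: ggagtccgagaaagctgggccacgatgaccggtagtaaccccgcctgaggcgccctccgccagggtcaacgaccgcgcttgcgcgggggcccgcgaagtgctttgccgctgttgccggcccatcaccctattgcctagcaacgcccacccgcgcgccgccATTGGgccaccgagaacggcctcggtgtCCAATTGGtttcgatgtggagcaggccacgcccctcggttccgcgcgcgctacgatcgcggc
Thrsp: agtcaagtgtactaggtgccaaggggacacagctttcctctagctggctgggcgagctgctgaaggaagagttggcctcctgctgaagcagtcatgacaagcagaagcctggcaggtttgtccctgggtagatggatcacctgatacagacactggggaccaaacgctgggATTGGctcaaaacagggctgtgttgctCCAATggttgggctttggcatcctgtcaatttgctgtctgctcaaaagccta
Plin2: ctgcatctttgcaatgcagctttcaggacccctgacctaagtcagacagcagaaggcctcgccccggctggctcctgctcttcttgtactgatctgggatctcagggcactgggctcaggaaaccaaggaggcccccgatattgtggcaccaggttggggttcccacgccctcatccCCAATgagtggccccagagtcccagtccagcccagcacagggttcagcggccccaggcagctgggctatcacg
Fabp3: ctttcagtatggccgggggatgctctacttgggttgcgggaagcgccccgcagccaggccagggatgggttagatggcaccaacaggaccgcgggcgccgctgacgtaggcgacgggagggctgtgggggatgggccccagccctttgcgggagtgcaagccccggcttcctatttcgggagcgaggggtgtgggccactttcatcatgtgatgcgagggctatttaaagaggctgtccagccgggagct
Olah: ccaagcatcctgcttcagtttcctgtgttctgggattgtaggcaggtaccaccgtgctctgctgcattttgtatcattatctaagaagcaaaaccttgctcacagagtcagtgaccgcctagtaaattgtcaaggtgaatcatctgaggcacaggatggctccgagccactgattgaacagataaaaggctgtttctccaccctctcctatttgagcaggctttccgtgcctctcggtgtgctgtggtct
Counted from the start, the Fasn window held CCAAT boxes at -90, -62 and -59, the last 2 overlapping on opposite strands, Thrsp had them at -79 and -52, and Plin2 at -73, while these letters are not in the Fabp3 and Olah windows. Of the 37 genes, 28 matched the RefSeq table, with 40 start windows. CCAAT on either strand was in 21 of the 40 windows (52.5%) and in 33.8% of all 32851 windows of the same length. GGGCGG, the core of the Sp1 box, was in 57.5% and 32.7%, the sterol response element TCACNCCAC in 2.5% and 1.05%, and the STAT site TTCNNNGAA in 2.5% and 7.02%. Both strands were read for each motif and each motif was searched on its own, so matches of different motifs may overlap. These are matches of letters and no measure of binding. RefSeq and GENCODE starts differed for some of the genes shown. The Olah window lay inside the GENCODE gene, whose start on its strand is at 3397210. The Thrsp and Fabp3 windows overlapped the GENCODE genes, whose starts on their strands are at 97417730 and 130308595. Which start these cells used was not tested.

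Of the 7 elongation and desaturation genes, 1 rose against adults in ER- cells (14.3%, beside 14.4% of all genes called and 8.89% higher). Against puberty 2 rose there (28.6%, beside 14.8% called and 8.78% higher). In ER+ cells 3 rose against adults (42.9%, beside 17.9% called and 12.8% higher) and 2 against puberty (28.6%, beside 13.1% and 7.34%). Fads1 and Fads2, neighbouring desaturases that make long polyunsaturated fatty acids, lie on chromosome 19 at 10182888 to 10196877 and 10062765 to 10101746. Fads1 was at 5867 and 5001 at puberty, 7914 and 6673 in adults, and 9562 and 11070 in pregnancy in ER- cells. In ER+ cells it was at 709 and 440, 885 and 627, and 5074 and 8900. ER- and ER+ libraries were far apart at puberty and in adults and close in pregnancy. Fads1 was higher in ER- than in ER+ cells by 3.27 ± 0.28 at puberty (adjusted p = 8.29e-06) and 3.28 ± 0.28 in adults, and by 0.61 ± 0.28 in pregnancy (adjusted p = 0.359). Pregnancy raised it in ER+ cells by 3.17 ± 0.28 against adults and 3.59 ± 0.28 against puberty, and in ER- cells by 0.93 ± 0.28 against puberty (adjusted p = 0.043), the last a call lost in 8 of the 18 runs. The change from puberty was smaller in ER- than in ER+ cells by 2.66 on the log2 scale (-2.66 ± 0.40, adjusted p = 0.00372), in a comparison where 2.31% of all genes passed (0.847% higher, 1.47% lower) and 3 members did, all lower. This call stood in all 18 runs. In the same comparison the 10 ER- luminal markers had a median of -2.72, with 2 of them lower, and their part was not tested.

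Fads2 was at 3254 and 2754, 5746 and 5269, and 4849 and 5377 in ER- cells and at 395 and 176, 636 and 471, and 1987 and 4473 in ER+ cells over the same stages. It was higher in ER- cells by 3.50 ± 0.42 at puberty and 3.33 ± 0.42 in adults, and by 0.78 ± 0.42 in pregnancy (adjusted p = 0.457). Fads2 rose in ER+ cells by 2.44 ± 0.42 and 3.49 ± 0.42, while its ER- differences of -0.11 ± 0.42 and 0.77 ± 0.42 did not pass, and the 2 changes from puberty differed by -2.72 ± 0.60 (adjusted p = 0.036). That call was lost in 12 of the 18 runs with 1 library left out and in 2 of 9 other settings, and the value was -2.14 without puberty ER+ replicate 2 or pregnancy ER+ replicate 2 (adjusted p = 0.126 and 0.0929). In basal cells Fads1 stayed between 3165 and 4749 and Fads2 between 1001 and 2374 over the 6 libraries.

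Scd1, which makes oleate, had the highest level per kilobase of exon of the 37 genes in ER- cells at each stage, with group means of 4994 at puberty, 5092 in adults and 4873 in pregnancy. Its values there were 26415 and 22450, 25050 and 24772, and 22693 and 24985, a range no wider than the spread of the puberty libraries. In ER+ cells Scd1 was at 10620 and 5408, 5926 and 5427, and 10356 and 26084, and its differences of 1.53 ± 0.59 and 1.12 ± 0.59 had adjusted p of 0.104 and 0.278. It was higher in ER- than in ER+ cells in adults (2.13 ± 0.59, adjusted p = 0.0332). Scd2, a related desaturase, ranged from 1656 to 7690 and passed in none of the 12 comparisons by limma, with unadjusted p under 0.05 for the ER- to ER+ difference at puberty (-1.24 ± 0.40) and in pregnancy (-0.98 ± 0.40). Of the elongases, Elovl1 rose in ER- cells against puberty (1.01 ± 0.20, adjusted p = 0.00385). Elovl6, which lengthens the product of the synthase, rose against adults in ER- (0.95 ± 0.30, adjusted p = 0.0482) and ER+ cells (0.92 ± 0.30, adjusted p = 0.0488). These 2 calls stood close to the threshold and were lost in 13 and 12 of the 18 runs with 1 library left out and in 4 of 8 other settings each. Elovl5 differed from adults by 0.56 ± 0.19 in ER- cells and 0.49 ± 0.19 in ER+ cells, neither past the test, and was higher in basal than luminal cells over the stages by 0.26 ± 0.09.

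Triglyceride assembly genes did not move as 1 group. Of 7, 1 fell against adults in ER- cells (14.3% called, beside 14.4% of all genes) and 2 rose against puberty (28.6% beside 14.8%). In ER+ cells 1 rose against adults (14.3% beside 17.9%), and 1 rose and 2 fell against puberty (42.9% beside 13.1%). The risers were Lpin1 and Agpat1. Lpin1, a phosphatidic acid phosphatase, was at 2779 and 2532 at puberty, 4254 and 3133 in adults, and 6571 and 8967 in pregnancy ER- cells (chromosome 12, 16535669 to 16610966). In ER+ cells Lpin1 was at 2261 and 1219, 2126 and 1312, and 5024 and 7130. It rose in ER+ cells by 1.84 ± 0.35 and 1.85 ± 0.35 and in ER- cells against puberty by 1.53 ± 0.35 (adjusted p = 0.0116), and differed from adults there by 1.07 ± 0.35 (adjusted p = 0.0572). Agpat1, a lysophosphatidic acid acyltransferase, was at 646 and 590, 1077 and 865, and 1299 and 1649 in ER- cells and rose against puberty by 1.24 ± 0.22 (adjusted p = 0.00188).

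Lpin2, the paralogous phosphatase, was lower in ER- than in ER+ cells at each stage (chromosome 17, 71182560 to 71249817). Lpin2 was at 898 and 913, 1343 and 1460, and 636 and 571 in ER- cells and at 5242 and 4366, 5166 and 4396, and 4222 and 1709 in ER+ cells, with no overlap at any stage. The difference was -2.40 ± 0.32 at puberty, -1.77 ± 0.32 in adults and -2.15 ± 0.32 in pregnancy (adjusted p 0.00018, 0.00199 and 0.00257). Pregnancy lowered it against adults in ER- cells (-1.22 ± 0.32, adjusted p = 0.0229). In the same comparison 5 of the 10 ER+ luminal markers were lower and none higher, with a median of -2.37. These markers summed to 10101 and 11903 in pregnancy ER- libraries, against 37937 and 49611 in adult ER- libraries. Their part in the fall of Lpin2 was not tested.

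Dgat2 and Dgat1 catalyse the last step of triglyceride formation. Dgat2 was at 591 and 279, 375 and 527, and 118 and 91 in ER- cells, at 1769 and 2902, 1210 and 2433, and 686 and 291 in ER+ cells, and at 528 and 2102, 317 and 450, and 257 and 183 in basal cells (chromosome 7, 99153658 to 99182719). Both pregnancy libraries were below every earlier library in each of the 3 populations. Dgat2 fell in ER+ cells against puberty (-2.34 ± 0.64, adjusted p = 0.0335), and its other differences, -1.94 ± 0.64 in ER+ and -2.09 ± 0.64 in ER- cells against adults and -1.96 ± 0.64 in ER- cells against puberty, had adjusted p of 0.0582, 0.0505 and 0.0629. It was lower in ER- than ER+ cells at puberty by -2.48 ± 0.64 (adjusted p = 0.0257). The 10 ER+ luminal markers summed to 98863 and 43549 in pregnancy ER+ libraries, against 178558 and 225136 at puberty. Their median fold change there was -0.68, with 1 higher and 1 lower, and their part in the fall of Dgat2 was not tested. Dgat1 stayed between 272 and 933 in all libraries and passed in none of the 12 comparisons, the nearest being basal cells against adults (limma, -0.92 ± 0.32, adjusted p = 0.0937).

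Gpam and Agpat2, acyltransferases of the first and second steps and both also genes of adipocytes, fell in basal cells against puberty, by -1.64 ± 0.35 (adjusted p = 0.0253) and -1.60 ± 0.36 (adjusted p = 0.0319). Gpam was at 666 and 726 in pregnancy there, against 1514 and 3109 at puberty, and Agpat2 was at 168 and 156 in pregnancy, against 309 and 788 at puberty. The adipocyte sum in the same libraries was 4981 to 5459 in pregnancy and 19904 and 36684 at puberty, and the puberty library with the higher sum had the higher Gpam and Agpat2. Without puberty basal replicate 2 neither passed. Gpam also fell in ER+ cells against puberty (-1.18 ± 0.35, adjusted p = 0.0372), with 998 and 1073 in pregnancy against 2526 and 2178 at puberty, and the ER+ puberty library with an adipocyte sum of 3316 had 2178. The part of adipocyte RNA in these falls was not tested.

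Of the 5 droplet genes, 2 rose against adults and 1 against puberty in ER- cells. Of all genes, 14.4% and 14.8% passed there, 8.89% and 8.78% higher. In ER+ cells 3 droplet genes rose against each stage, where 17.9% and 13.1% of all genes passed, 12.8% and 7.34% higher. Plin2, the perilipin that coats cytosolic droplets, rose in both luminal populations (chromosome 4, 86648386 to 86670060). Plin2 was at 3275 and 3466 at puberty, 2693 and 3784 in adults, and 15537 and 14178 in pregnancy in ER- cells, and at 870 and 740, 823 and 561, and 6131 and 16523 in ER+ cells. It rose in ER- cells by 2.22 ± 0.58 against adults and 2.14 ± 0.58 against puberty (adjusted p 0.0308 and 0.0333) and in ER+ cells by 3.89 ± 0.58 and 3.65 ± 0.58 (adjusted p 0.00127 and 0.0021). Basal libraries had 1136 and 1427, 5426 and 1374, and 4677 and 6875, differences of 1.05 ± 0.58 and 2.15 ± 0.58 that did not pass. Plin2 was already higher in ER- than ER+ cells at puberty (2.07 ± 0.58, adjusted p = 0.0419) and in adults (2.23 ± 0.58, adjusted p = 0.025). The call at puberty was lost in 12 of the 18 runs with 1 library left out and in 3 of 9 other settings.

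Btn1a1, butyrophilin of the milk fat globule membrane, was at 9107 and 12705, 4506 and 6359, and 12519 and 13604 in ER- cells and at 929 and 482, 249 and 512, and 3624 and 11744 in ER+ cells (chromosome 13, 23456992 to 23465901). It was higher in ER- than in ER+ cells by 4.0 ± 0.69 at puberty and 3.90 ± 0.69 in adults, and by 1.00 ± 0.69 in pregnancy (adjusted p = 0.589). Btn1a1 rose in ER+ cells by 4.19 ± 0.69 and 3.28 ± 0.69, while the ER- differences of 1.29 ± 0.69 and 0.28 ± 0.69 did not pass. The difference of the 2 changes from puberty, -3.00 ± 0.98, did not pass either (adjusted p = 0.179). In basal cells Btn1a1 was at 108 and 347 at puberty, 6989 and 3033 in adults, and 2977 and 3957 in pregnancy, a rise of 4.14 ± 0.69 against puberty (adjusted p = 0.0153) and a difference of -0.42 ± 0.69 from adults. The 10 ER- luminal markers summed to 40737 to 60311 in the pregnancy basal libraries and 11057 to 14906 in the puberty ones, and their part in this rise was not tested.

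Xdh, xanthine dehydrogenase, which works with butyrophilin in globule secretion, was at 5045 and 5761, 2618 and 4035, and 8987 and 12448 in ER- cells and at 1253 and 1004, 388 and 512, and 4778 and 10366 in ER+ cells (chromosome 17, 73883895 to 73950196). It rose against adults in ER- cells (1.70 ± 0.38, adjusted p = 0.0123) and against both stages in ER+ cells (3.98 ± 0.38 and 2.65 ± 0.38). Xdh was higher in ER- than in ER+ cells by 2.26 ± 0.38 at puberty and 2.86 ± 0.38 in adults, and by 0.59 ± 0.38 in pregnancy (adjusted p = 0.544). Plin3, another coat protein, ranged from 535 to 1375 and Cidea, which enlarges droplets, from 0 to 173, and neither passed in any of the 12 comparisons (limma); Plin3 differed from adults by 0.50 ± 0.25 and Cidea by 1.97 ± 1.33 in ER- cells.

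Set directly against each other, ER- luminal cells had 6 of the 37 genes higher and 3 lower than ER+ cells at puberty (12.4% of all genes tested passed, 6.84% higher and 5.59% lower), a split of 6 and 6 with TMM scaling. In adults 11 were higher and 2 lower (background 17%, of which 11.5% higher and 5.49% lower). In pregnancy 1 was lower, Lpin2, and none was higher (limma; background 1.85%, of which 0.211% higher and 1.64% lower, and 6 members had an unadjusted p under 0.05). The median over the 37 genes was 0.50 at puberty, 0.71 in adults and 0.53 in pregnancy, beside 0.11, 0.07 and 0.09 over all genes. Without pregnancy ER+ replicate 2, the library with more ER- marker signal, Lpin2 and Scd2 were lower and Srebf1 higher in pregnancy, and the median was 0.86. The count in pregnancy was 2 without puberty basal replicate 2. A model of the 2 pregnancy luminal groups alone, with fewer libraries to estimate the spread, called 8 higher and 3 lower. In adults the count of 13 was 6 without either adult ER- library and 8 without adult ER+ replicate 1.

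Vldlr, the receptor for triglyceride-rich lipoproteins, ran apart from the other uptake genes (chromosome 19, 27216484 to 27254231). Vldlr was at 1883 and 1185, 1375 and 713, and 4021 and 4454 in basal cells, at 1175 and 1162, 628 and 533, and 657 and 924 in ER- cells, and at 172 and 158, 78 and 83, and 540 and 556 in ER+ cells, from puberty to pregnancy. Its highest libraries were those of pregnancy basal cells. Vldlr rose in basal cells by 2.09 ± 0.28 against adults (adjusted p = 0.000771) and 1.5 ± 0.28 against puberty (adjusted p = 0.0105), and in ER+ cells by 2.75 ± 0.28 and 1.73 ± 0.28. In ER- cells the differences were 0.43 ± 0.28 and -0.58 ± 0.28 and did not pass. The change from puberty was lower in ER- cells than in ER+ cells (-2.31 ± 0.39, adjusted p = 0.00569) and than in basal cells (-2.09 ± 0.39, adjusted p = 0.0233, where 0.627% of all genes passed, 0.197% higher and 0.43% lower). With 1 library left out, the first call stood in all 18 runs and the second was lost in 7. The 10 ER- luminal markers had medians of -2.72 and -3.25 in the same comparisons, and their part was not tested. Vldlr was higher in ER- than ER+ cells by 2.82 ± 0.28 at puberty and 2.83 ± 0.28 in adults, and by 0.51 ± 0.28 in pregnancy. The 8 fibroblast markers summed to 175736 and 160751 in pregnancy basal libraries, against 27425 and 21702 in adults and 79722 and 75058 at puberty. Their part in the basal rise of Vldlr was not tested.

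Over the 3 stages, 4 of the 37 genes were higher and 8 lower in basal than in luminal cells, where 42.5% of all genes passed, 20.9% higher and 21.5% lower. The 4 higher were Vldlr (2.21 ± 0.14), Cd36 (1.97 ± 0.52), Lpl (0.99 ± 0.32) and Elovl5, and the 8 lower were Btn1a1 (-1.16 ± 0.35), Lpin1 (-0.90 ± 0.17), Me1 (-0.71 ± 0.16), Srebf1, Lpin2, Agpat1, Elovl6 and Elovl1. In the same comparison all 10 endothelial and 5 of 11 adipocyte markers were higher in basal cells, and Cd36 and Lpl are genes of both cell types; their part was not tested.

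**Figure D5:**
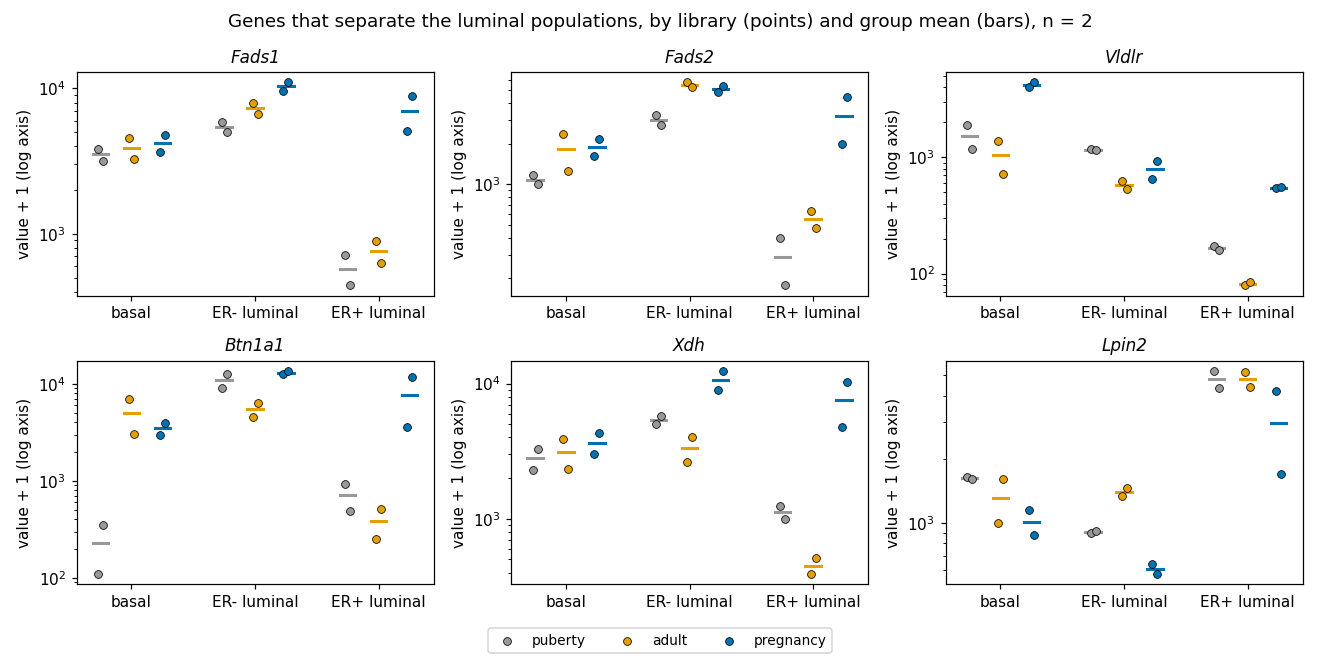
Values plus 1 on a log axis for Fads1, Fads2, Vldlr, Btn1a1, Xdh and Lpin2. Points are libraries and bars group means (n = 2) in basal, ER- luminal and ER+ luminal cells at puberty, in adults and in pregnancy; at puberty and in adults the ER- libraries of Fads1, at 5001 to 7914, lie above those of ER+ cells, at 440 to 885, and in pregnancy they lie at 9562 and 11070 beside 5074 and 8900.

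Other genes of the same pathway were counted from lists outside the 37. Of 11 further triglyceride assembly genes tested, 5 rose against adults in ER- cells (45.5%, beside 8.89% of all genes higher) and 3 against puberty (27.3% beside 8.78%). In ER+ cells 3 rose against each stage (27.3%, beside 12.8% and 7.34% of all genes). Gpat4, the glycerol phosphate acyltransferase of the endoplasmic reticulum, was at 1416 and 1391 at puberty, 1043 and 1047 in adults, and 3247 and 4442 in pregnancy ER- cells and rose by 1.86 ± 0.17 (adjusted p = 7.48e-06) and 1.44 ± 0.17. In ER+ cells it rose by 1.75 ± 0.17 and 2.19 ± 0.17. Gk, which makes glycerol phosphate, rose in ER- cells against adults (1.52 ± 0.29) and in ER+ cells against both stages (2.30 ± 0.29 and 1.94 ± 0.29). Of 24 further synthesis and elongation genes, 7 rose against adults in ER- cells (29.2%, beside 14.4% of all genes called and 8.89% higher). Among them were Mpc1, a mitochondrial pyruvate carrier subunit (1.61 ± 0.38), and Pdha1 of pyruvate dehydrogenase (1.02 ± 0.21). Against puberty 6 rose and 1 fell (29.2%, beside 14.8% of all genes called). In ER+ cells 7 rose against adults (29.2%, beside 17.9% called and 12.8% higher), and 2 rose and 3 fell against puberty (20.8%, beside 13.1% called).

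Of 15 regulators of lipogenesis, 3 rose against adults in ER- cells (14.4% of all genes passed there), and 6 rose and 1 fell against puberty (46.7% beside 14.8%). In ER+ cells 3 rose against adults (beside 17.9% of all genes), and 2 rose and 1 fell against puberty (beside 13.1%). Ppargc1b, a coactivator of lipogenic transcription, was at 210 and 197, 232 and 101, and 549 and 808 in ER- cells and rose by 2.11 ± 0.39 and 1.71 ± 0.39. Stat5a, a mediator of prolactin signalling, rose there against puberty (1.62 ± 0.26), as did Scap, the escort of sterol response factors (1.02 ± 0.18), and Insig2, which holds that escort back, fell (-1.15 ± 0.24). Of 10 further droplet genes tested, 1 rose against each stage in both luminal populations, G0s2, an inhibitor of the main triglyceride lipase. Of all genes, 8.89% and 8.78% were higher in ER- cells and 12.8% and 7.34% in ER+ cells. G0s2 rose in ER- cells by 4.33 ± 0.85 and 3.40 ± 0.85 and in ER+ cells by 7.15 ± 0.85 and 4.33 ± 0.85. G0s2 was at 113 and 60, 48 and 38, and 727 and 1067 in ER- cells. Against puberty 3 of the 10 fell in ER- cells, beside 6.04% of all genes lower. These were Cidec, Plin1 and Plin4, droplet genes that also stand in the adipocyte list (-8.44 ± 1.27, -5.65 ± 1.25 and -3.28 ± 0.72). Their puberty values were higher in the ER- library with the higher adipocyte sum, Cidec at 1951 beside 309 and Plin1 at 644 beside 174.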

How the data were processed

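Per the labels' protocols, RNA of sorted cells came from RNeasy micro kits and sequencing libraries from the Ovation Solo kit. The tools STAR, Picard and HTSeq and the builds GRCm38 and mm10 appear per the submitters' processing notes, without versions, strand setting, treatment of duplicate reads or annotation. The authors deposited 1 table of normalized signal values, with 46868 rows, of which 790 repeat one of 179 gene IDs; the row with the highest mean was kept, leaving 46257, and no member was repeated. The values are whole numbers with near equal library totals, so they were taken as scaled counts of unknown depth. Reads of overlapping genes cannot be told apart without strand.

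The 22315 genes that reached 10 in at least 2 of 18 libraries, all 37 members among them, were fitted with limma 3.58.1 in R 4.3.3 on log2(value + 1), with trended, robust variance, 1 mean for each of 9 groups and 9 residual degrees of freedom. The fit was tested on simulated data. Benjamini-Hochberg adjusted p-values cover all genes tested. Positions, counted from 1, and exon lengths come from GENCODE vM21 (GRCm38), and promoters come from RefSeq. Members and lists were chosen with earlier results of these data known. By rule, library values are given for up to 4 members of each step with the largest change among those called in pregnancy ER- cells and up to 2 further members per comparison; Dgat2, Gpam, Agpat2, Scd1, Srebf1 and Acly in ER+ cells were added after their values were seen. Alternatives were another added constant (10), other filters, TMM and quantile scaling, a replicate block, smaller models, leaving out each library, and library weights, chosen after seeing the data.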

Additional observations from a re-analysis of the deposited data

Results flagged for a closer look

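The change from puberty to pregnancy differed between populations for 3 genes, by a test of the difference itself in limma. For Fads1 the ER- luminal change minus the ER+ luminal change was -2.66 ± 0.40 (adjusted p = 0.00372), with changes of 0.93 in ER- and 3.59 in ER+ cells, and the call stood in all 18 runs that each left out 1 library. For Fads2 it was -2.72 ± 0.60 (adjusted p = 0.036), with changes of 0.77 and 3.49, and the call was lost in 12 of the 18 runs and in 2 of 9 other settings. For Vldlr it was -2.31 ± 0.39 (adjusted p = 0.00569), with changes of -0.58 and 1.73, a call that stood in all 18 runs. The ER- change of Vldlr minus the basal change was -2.09 ± 0.39 (adjusted p = 0.0233), and this call was lost in 7 of the 18 runs, namely without puberty basal replicate 2, either puberty ER- library, either pregnancy basal library or either pregnancy ER- library.

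In pregnancy ER+ replicate 2, which had the higher sum of ER- luminal markers, Fads1 and Fads2 were at 8900 and 4473, against 5074 and 1987 in replicate 1, while Vldlr was at 556 against 540. Both pregnancy ER+ libraries were above all earlier ER+ libraries for the 3 genes. In the comparison of ER- and ER+ changes the 10 ER- luminal markers had a median of -2.72, with 2 lower, and none had a positive fold change. The part of ER- cells in the ER+ libraries was not tested. Groups of 2 libraries are too small for a test of single libraries that stand apart.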

How the results depend on the processing

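Direction held in every alternative for the 112 calls made over 12 comparisons of 37 members. These calls were lost in 279 of 2016 results with 1 library left out and in 80 of 935 under other settings. Counts of members called moved by over 1.5 times in these cases. Against adults in ER- cells, 17 became 27 with the 2 groups alone and 8 with library weights. Against adults in basal cells, 2 became 4 with a minimum value of 50, TMM scaling, quantile normalization (2 higher and 2 lower), the 2 groups alone or library weights. For ER- against ER+ cells, 13 became 6 in adults with library weights and 1 became 11 in pregnancy with the 2 groups alone. For the difference between the ER- and basal changes, 1 became 4 with its groups alone. The causes were not tested, except that fits of fewer groups use fewer libraries.

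Leaving out each library in turn gave 3 to 19 calls against adults and 3 to 15 against puberty for ER- cells. For ER+ cells it gave 14 to 21 and 9 to 17, and for basal cells 1 to 7 and 0 to 7. For ER- against ER+ cells it gave 6 to 10 at puberty, 6 to 16 in adults and 1 to 3 in pregnancy, for basal against luminal cells 9 to 14, for the difference of ER- and ER+ changes 2 to 4, and of ER- and basal changes 0 to 1 (limma).

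Quantile normalization moved the median over all genes from 0.205 to -0.109 for ER+ cells against adults, from 0.091 to -0.033 for ER- cells against adults and from -0.031 to -0.173 for basal against luminal cells. TMM scaling moved it from 0.027 to -0.095 for ER- cells and from 0.125 to 0.011 for ER+ cells against puberty.

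Deviations of same-numbered libraries from their group means correlated at -0.088 to 0.269 over 36 pairs of groups, most of them across stages, with a median of 0.014. Only 1 pair was over 0.1, puberty ER- with puberty ER+ luminal cells (0.269). In both, replicate 1 had the higher adipocyte sum, 22026 against 4306 and 15911 against 3316. Replicate 2 had the higher sum of 8 fibroblast markers in both, 73224 against 16457 and 63198 against 20376. The main model took these puberty libraries as independent, and whether they were paired is not given by the labels. With the replicate block the counts against adults and puberty were 15 and 14 for ER- luminal cells, 19 and 15 for ER+ luminal cells and 2 and 6 for basal cells, and 8, 11, 1, 13, 3 and 1 in the other comparisons. A count-model test was planned on recovered reads and was not run, since the deposited values did not return whole reads in most libraries. Depth is therefore unknown, and differences of genes near the smallest value of a library cannot be resolved.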

Other observations

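Some of 17 fatty acid oxidation genes rose in pregnancy and most did not pass the test. In ER- luminal cells 7 rose against adults (41.2%, beside 14.4% of all genes called and 8.89% higher) and 6 against puberty (35.3%, beside 14.8% and 8.78%). In ER+ cells 4 rose against each stage (23.5%, beside 17.9% and 13.1% of all genes called and 12.8% and 7.34% higher). Ehhadh, a peroxisomal enzyme, rose in ER- cells by 3.10 ± 0.57 (adjusted p = 0.00514) and 2.23 ± 0.57, and Cpt2, which returns acyl chains to coenzyme A inside mitochondria, by 1.56 ± 0.31 and 1.61 ± 0.31. Hadha, the alpha subunit of the trifunctional protein, rose by 0.94 ± 0.19 and 0.99 ± 0.19. In basal cells Hadha rose against adults (0.79 ± 0.19).

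Of 5 lipolysis genes, 2 rose against adults and none against puberty in ER- cells, beside 8.89% and 8.78% of all genes higher. In ER+ cells 3 rose against adults and 1 against puberty, beside 12.8% and 7.34% of all genes higher. Lipa, the lysosomal lipase, rose in ER- cells against adults (2.09 ± 0.54) and in ER+ cells against both stages (3.44 ± 0.54 and 3.0 ± 0.54). Milk protein genes, listed for comparison, had 3 of 8 higher against adults and 4 against puberty in ER- cells. Of all genes, 8.89% and 8.78% were higher there. In ER+ cells 8 and 6 of the 8 were higher, beside 12.8% and 7.34% of all genes. The 8 milk protein genes summed to 840783 and 103251 in pregnancy ER- replicates 1 and 2. Abundant RNAs outside milk were also low in replicate 2, such as mt-Co1 at 17475 against 149793. The part of these differences between the libraries in the smaller ER- counts was not tested. Sums of the 37 fat and droplet genes in the pregnancy luminal libraries lay between 115013 and 256570.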
